A study of Mus musculus with 4 samples.

Results

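Heat shock proteins and molecular chaperones were followed through 4 RNA-seq libraries of mouse bone marrow-derived macrophages. The members were taken by symbol: the Hsp, Dnaj, Bag and Cct2 to Cct8 gene families, without the proteoglycan gene Hspg2 and without pseudogene rows. This gave 89 of the 23284 genes listed, and 62 of the 89 reached 5 FPKM (fragments per kilobase of transcript and of library size, a level corrected for length and depth) in at least 1 library. The remaining 27 included Cct8l1, Dnajb8, Dnajc22, Dnajc5b, Dnajc5g and Hspb3, which were listed at 0 in all 4 libraries.

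The control macrophages were Spic+/+ and the knockout macrophages Spic-/-; the product of Spic, Spi-C, is an ETS transcription factor related to PU.1 and known from heme-handling macrophages. The sample titles call the knockout conditional, and the labels name neither the allele nor a Cre driver. Every culture, controls included, was given 40 µM hemin, the oxidised form of heme, for 18 h (the sample descriptions give the same figure in mM), and was then kept for 4 h with or without 100 ng/ml LPS, a bacterial cell wall component sensed by Toll-like receptor 4. There was 1 library for each of the 4 combinations, with no culture free of hemin, so differences between groups have neither a replicate check nor a test. The intervals given are approximate 95% intervals from fragment numbers inferred from the FPKM values, and they cover counting error only.

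Molecular chaperones bind unfolded or partly folded proteins and let them fold. HSP70 proteins work in cycles of ATP binding and hydrolysis. J-domain proteins (the Dnaj families) speed the hydrolysis, and nucleotide exchange factors (HSP110 and BAG proteins) reset the cycle. HSP90 matures kinases and steroid receptors, and the CCT ring folds actin and tubulin in a closed chamber. Heat shock factor 1 raises the transcription of many cytosolic members when proteins are damaged, while the unfolded protein response raises those of the endoplasmic reticulum. Heme is itself a stress to proteins, and macrophages activated by LPS make large amounts of secreted protein.

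Spic was at 53.1 FPKM in the control without LPS, 406 in the control with LPS, 14.98 in the knockout without LPS and 80.8 in the knockout with LPS, so it was lower in both knockout libraries but not at 0. The cytokine gene Il1b was at 1.37, 5779, 6.70 and 8589 FPKM in the same order, which places both LPS libraries apart from both others. All 9 macrophage markers were above 5 FPKM in every library. Cd68 stood between 565 and 789 FPKM, while Cd14 rose past 2-fold with LPS in both genotypes (log2 ratios of 4.94 and 4.13) and Mertk fell past it in the control (-1.32). The steps of the low values gave the relative number of fragments behind 1 FPKM, at 100%, 67.8%, 82.8% and 51.6% in the same order. At equal FPKM, a gene thus rested on the fewest fragments in the knockout with LPS. These figures describe the FPKM scale and not the number of fragments sequenced. The sum of FPKM over all genes differed between libraries, from 500123 in the control without LPS to 819232 in the knockout with LPS. Members summed to 4279.5, 6378, 4355 and 6841 FPKM, which was 0.856%, 0.866%, 0.829% and 0.835% of each library's sum. The summed FPKM of the members was higher with LPS in both genotypes, but so was that of all genes. The members' share changed little with LPS, from 0.856% to 0.866% in the control and from 0.829% to 0.835% in the knockout.

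**Figure D1:**
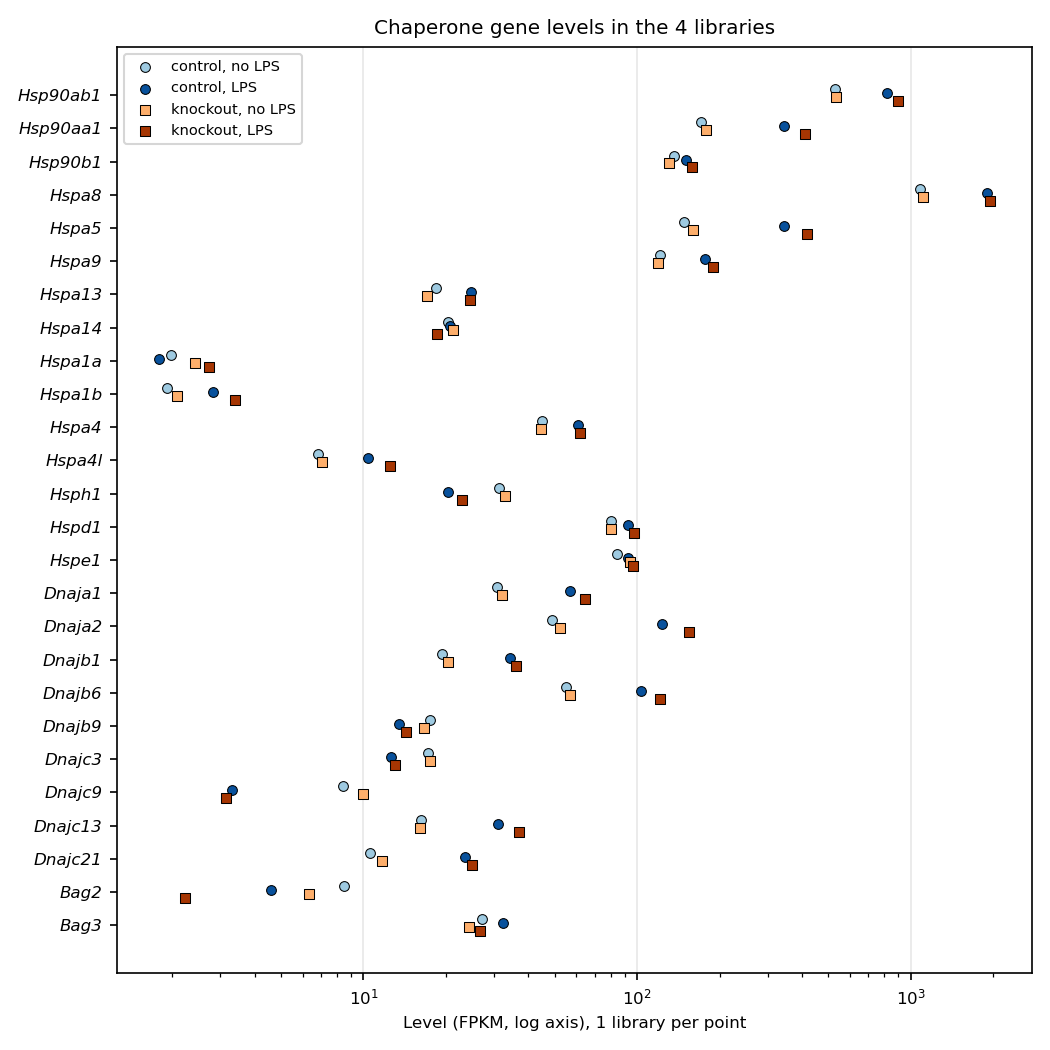
FPKM on a log axis for 26 chaperone genes in the 4 libraries, with circles for control, squares for knockout, pale fill without LPS and dark fill with LPS, 1 library per point. Hspa8 is the highest in every library, the dark points of Hspa5, Dnaja2 and Hsp90aa1 stand well to the right of the pale ones, and those of Dnajc9, Bag2 and Hsph1 stand to the left.

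With LPS, the control macrophages held more mRNA for the HSP70 of the endoplasmic reticulum (Hspa5), for a cytosolic HSP90 (Hsp90aa1) and for the J-domain partners Dnaja2 and Dnajc21, and less for Dnajc9. These were the only members past 2-fold on the scale of log2 (FPKM + 1), which understates the change of low genes. Of 62 members at 5 FPKM or more in at least 1 of both libraries, 4 were higher, where the background over all 8050 genes counted in this way was 12.3%, and 1 was lower, where it was 6.50%. In the knockout, 7 of 61 members were higher against a background of 13.7%, and 2 were lower against 7.74%. The members added in the knockout were Dnajb5, Dnajb6 and Dnajc13 among those higher and Bag2 among those lower. Their ratios in the control fell short of the 2-fold mark, and the difference between genotypes was not tested. With the libraries scaled to their upper quartile in place of the deposited scale, 2 members were higher and 1 lower in the control, and 3 higher and 2 lower in the knockout. The share of all genes was not counted under that scaling.

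Across the counted members the median log2 ratio with LPS was 0.18 in the control and 0.20 in the knockout, beside 0.11 and 0.12 over all genes. Above 0 were 42 of 62 members in the control and 36 of 61 in the knockout. After upper-quartile scaling the all-gene median was -0.07 in the control and -0.06 in the knockout, and 31 members were then above 0 in each. The distance of the members' median from that of all genes was 0.07 as deposited and 0.08 after that scaling in the control, and 0.08 under both in the knockout. At 1.5-fold, 14 members were higher in the control against a background of 23.1%, and 5 were lower against 15.1%. In the knockout 19 were higher against 25.4% and 3 lower against 17.0%.

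**Figure D2:**
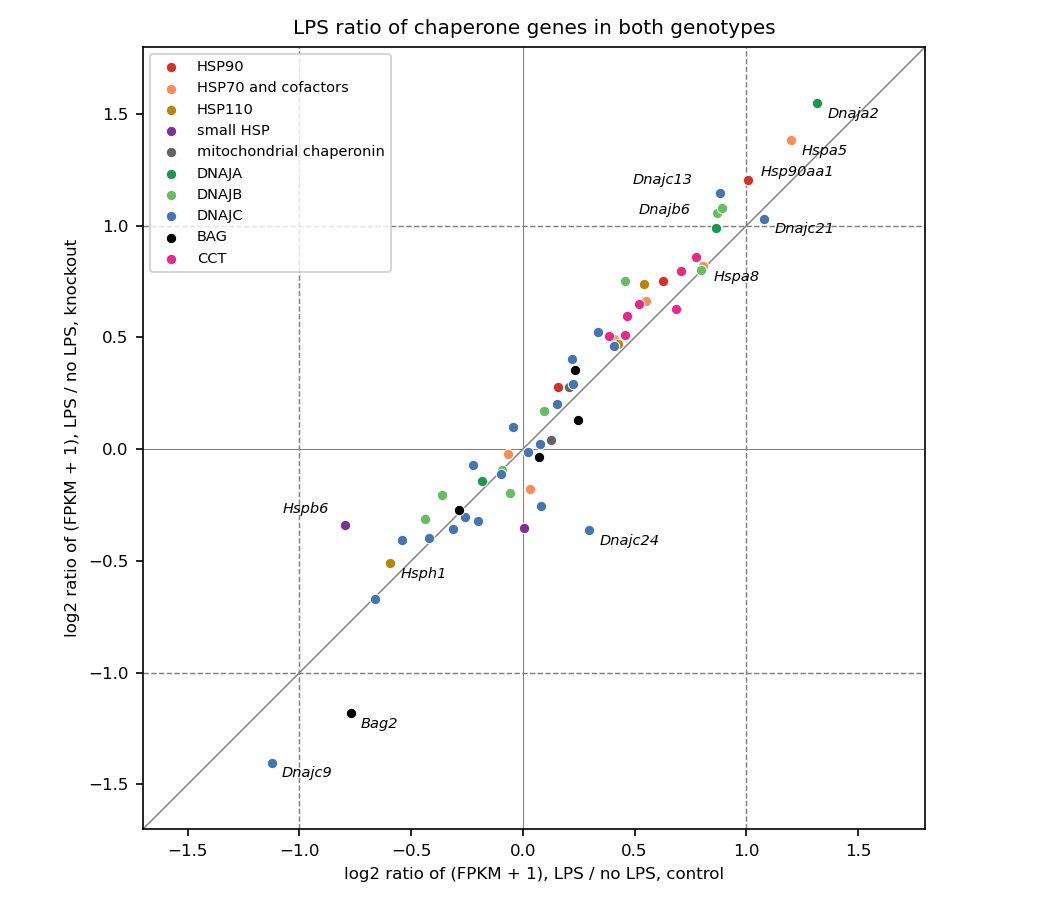
Log2 ratio of (FPKM + 1) with LPS over without, control on the horizontal and knockout on the vertical axis, for the 61 members at 5 FPKM or more in both comparisons, coloured by role, 1 library per group; dashed lines mark 2-fold and the diagonal marks equal ratios. Dnaja2 (1.32 and 1.55) and Hspa5 (1.20 and 1.38) lie farthest to the upper right, Dnajc9 (-1.12 and -1.40) farthest to the lower left, and Dnajc24 (0.30 and -0.36) farthest from the diagonal.

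The promoters of 4 members are shown because they carry 2 well-known stress elements in genes whose LPS ratios lay far apart. The sequences are from RefSeq, build GRCm38.p6, on the gene's strand from 250 bases before to 50 bases after the annotated start. Capitals mark the ER stress element (CCAAT, a spacer of 9 bases, CCACG) in Hspa5 (chr2:34771840-34772139, plus strand) and Dnajc3 (chr14:118937682-118937981, plus strand), and a heat shock element of 3 units, alternating GAA and TTC each 2 bases apart, in Dnajb6 (chr5:29735648-29735947, plus strand) and Hsph1 (chr5:149636287-149636586, minus strand).
Hspa5: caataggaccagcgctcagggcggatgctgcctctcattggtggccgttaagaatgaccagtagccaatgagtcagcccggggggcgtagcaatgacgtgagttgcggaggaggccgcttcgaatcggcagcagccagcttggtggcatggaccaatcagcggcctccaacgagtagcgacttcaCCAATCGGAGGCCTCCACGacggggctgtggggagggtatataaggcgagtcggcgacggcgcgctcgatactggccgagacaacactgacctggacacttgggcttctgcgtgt
Dnajc3: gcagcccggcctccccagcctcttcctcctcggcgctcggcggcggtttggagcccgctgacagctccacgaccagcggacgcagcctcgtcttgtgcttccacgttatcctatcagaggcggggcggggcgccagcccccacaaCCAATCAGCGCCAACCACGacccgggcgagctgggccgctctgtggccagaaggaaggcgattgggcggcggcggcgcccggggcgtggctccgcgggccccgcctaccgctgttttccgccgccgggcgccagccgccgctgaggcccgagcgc
Dnajb6: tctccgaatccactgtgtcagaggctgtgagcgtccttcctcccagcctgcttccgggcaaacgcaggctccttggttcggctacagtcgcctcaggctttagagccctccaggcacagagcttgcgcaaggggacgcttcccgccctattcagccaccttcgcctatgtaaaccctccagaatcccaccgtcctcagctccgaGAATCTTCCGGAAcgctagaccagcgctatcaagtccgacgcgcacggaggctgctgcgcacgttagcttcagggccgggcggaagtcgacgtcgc
Hsph1: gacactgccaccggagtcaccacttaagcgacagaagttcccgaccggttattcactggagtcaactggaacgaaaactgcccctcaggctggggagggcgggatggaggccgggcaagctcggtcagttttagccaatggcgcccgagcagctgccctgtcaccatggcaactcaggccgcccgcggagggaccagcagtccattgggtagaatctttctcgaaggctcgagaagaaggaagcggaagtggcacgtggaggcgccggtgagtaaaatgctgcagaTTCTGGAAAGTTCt

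The ER stress element is the site known to be read in the unfolded protein response, and the heat shock element is that of heat shock factors. Searched on both strands, the ER stress element was in 3 of the 73 members with a window in the RefSeq table, Hspa5, Hsp90b1 and Dnajc3, or 3.23% of 93 member windows against 0.119% of all 32851 windows of this length. Counted from the first base of the window, with the gene start at base 251, it lay at bases 186 to 204 in Hspa5, 146 to 164 in Dnajc3, and 39 to 57 and 144 to 162 (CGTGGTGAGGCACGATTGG, the other strand) in Hsp90b1. These genes differed in their LPS ratios: Hspa5 was at 1.20 in the control and 1.38 in the knockout, Hsp90b1 at 0.16 and 0.28, and Dnajc3 at -0.42 and -0.40, all as log2 of (FPKM + 1).

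A heat shock element of 3 units was in 4 of the 73 members (Dnajb6, Hspd1, Hspe1 and Hsph1), or 5.48% of them against 0.662% of all 27025 genes with a window. By window the shares were 6.45% and 0.603%, but windows of a gene overlap and Hspd1 and Hspe1 share theirs, so the matches in members lay at 3 distinct places. It lay at bases 205 to 217 in Dnajb6, and in Hsph1 it lay past the start, at bases 287 to 299. Hspe1 held overlapping copies, TTCTAGAACCTTC at bases 162 to 174 and GAACCTTCCGGAA at bases 167 to 179. Among these genes Dnajb6 had LPS ratios of 0.89 and 1.08 and Hsph1 of -0.59 and -0.51. The choice of genes to show was made after their values were seen, and a match of letters is a description, not a bound site.

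The shorter heat shock element (GAANNTTC or TTCNNGAA, which overlaps the longer one) was in 21 members and 24.7% of member windows, against 15.1% of all. The unfolded protein response element (TGACGTGG) was found in Dnajc25 only (1.08% of member windows against 0.676%), and a CCAAT box (CCAAT, part of the ER stress element) in 36.6% against 37.4%. The PU box (GAGGAAGT), the core bound by PU.1 and its relatives, was in Dnajc6 only, or 1.08% of member windows against 3.20%. Members without a window were Bag4, Cct4, Dnajc11, Dnajc12, Dnajc18, Dnajc2, Dnajc22, Dnajc30, Dnajc5, Dnajc5b, Hsp90aa1, Hsp90ab1, Hspa13, Hspa8, Hspa9 and Hspb2.

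The HSP90 genes were led by Hsp90ab1, the constitutive cytosolic form, at 527 FPKM in the control without LPS, 815 in the control with LPS, 533 in the knockout without LPS and 899 in the knockout with LPS. Its ratios of FPKM with LPS were 1.55 (1.52 to 1.58) in the control and 1.69 (1.65 to 1.72) in the knockout, short of 2-fold. Hsp90aa1, the inducible cytosolic form (chromosome 12, 110690605 to 110702728, minus strand, GRCm38), was at 170.4, 344, 178 and 410.4 FPKM in the same order. Both LPS libraries were thus above both libraries without LPS, by 2.02-fold (1.96 to 2.08) in FPKM in the control and 2.31-fold (2.24 to 2.38) in the knockout. On the log2 (FPKM + 1) scale Hsp90aa1 rose by 1.01 and 1.20, and in the control the value was 0.99 with 5 FPKM added and 0.84 after upper-quartile scaling, under the 2-fold mark. Hsp90b1, the HSP90 of the endoplasmic reticulum, was at 136, 151, 130.3 and 158 FPKM, a range within which the libraries lay close together. Its log2 ratio of 0.16 in the control changed sign to -0.02 after upper-quartile scaling.

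Among the HSP70 genes, the constitutive cytosolic Hspa8 was the most abundant member in every library, at 1083, 1895, 1106 and 1952 FPKM, and ranked between 43rd and 53rd of all genes. Its level with LPS was 1.75-fold (1.72 to 1.78) that without LPS in the control and 1.77-fold (1.74 to 1.79) in the knockout. Hspa5 (BiP, the HSP70 of the endoplasmic reticulum; chromosome 2, 34771970 to 34777547, plus strand, GRCm38) was at 149 FPKM in the control without LPS, 343 with LPS, 159 in the knockout without LPS and 418 with LPS. It rose by 1.20 in the control and 1.38 in the knockout on the log2 (FPKM + 1) scale, an FPKM ratio of 2.31 (2.24 to 2.38) and 2.62 (2.54 to 2.70), and stayed past 2-fold with 5 FPKM added and after upper-quartile scaling. The mitochondrial Hspa9 was at 121, 177, 119 and 189 FPKM, with log2 ratios of 0.55 and 0.66.

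Hspa13, a microsomal HSP70 relative, had log2 ratios of 0.41 and 0.49, and Hspa14, linked to the ribosome, had 0.03 (-0.13 after upper-quartile scaling) and -0.18. The heat-inducible pair Hspa1a and Hspa1b, the classical HSP70 genes of the heat shock response, stayed low in all 4 libraries. Hspa1a was at 1.98, 1.78, 2.42 and 2.73 FPKM and Hspa1b at 1.92, 2.83, 2.08 and 3.38 FPKM. These genes are near-identical copies, so the split between them is uncertain. Read separately, neither reached 5 FPKM, and the pair was not counted as a sum. Hspa1l, Hspa2, Hspa12a and Hspa12b were also below 5 FPKM. Hspbp1, a nucleotide exchange factor, lay between 22.2 and 23.96 FPKM in all libraries.

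The HSP110 genes, relatives of HSP70 that exchange its nucleotide, did not move together. Hspa4 was at 44.8, 60.5, 44.4 and 62.0 FPKM and Hspa4l at 6.80, 10.4, 7.08 and 12.5 FPKM, with log2 LPS ratios of 0.42 and 0.47 and of 0.54 and 0.74. Hsph1, the heat-inducible member with the heat shock element printed above, was at 31.3 FPKM in the control without LPS, 20.4 with LPS, 33.0 in the knockout without LPS and 22.9 with LPS. Both LPS libraries were thus below both others, at 0.651 times (0.592 to 0.715) the FPKM in the control and 0.693 times (0.626 to 0.767) in the knockout, short of 2-fold. The mitochondrial chaperonin genes Hspd1 and Hspe1, which share a bidirectional promoter, were at 80.0 to 97.5 FPKM and 84.5 to 96.9 FPKM. Their log2 LPS ratios were 0.21 and 0.28 for Hspd1 and 0.13 and 0.04 for Hspe1, and those of Hspe1 turned to -0.05 and -0.14 after upper-quartile scaling.

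Of the DNAJA genes, whose proteins feed substrates to HSP70, Dnaja2 (chromosome 8, 85537633 to 85555344, minus strand, GRCm38) had the highest LPS ratio of all members in both genotypes. It was at 48.8 FPKM in the control without LPS, 123 with LPS, 52.3 in the knockout without LPS and 155 with LPS. The gene rose by 1.32 and 1.55 on the log2 (FPKM + 1) scale, or 2.52-fold (2.39 to 2.67) and 2.96-fold (2.80 to 3.14) in FPKM. Dnaja1, its close relative, was at 30.7, 56.8, 32.0 and 64.5 FPKM, with log2 ratios of 0.87 and 0.99 that fell just short of 2-fold. With 0.1 FPKM in place of 1 added, its knockout value was 1.01, past 2-fold. Dnaja3, the mitochondrial member, had -0.18 and -0.14, and Dnaja4 was under 1 FPKM.

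The DNAJB genes ranged from Dnajb6 to Dnajb4. Dnajb6, a suppressor of protein aggregation, was at 55.1, 103, 56.8 and 121 FPKM, with both LPS libraries above both others. Its log2 ratio was 0.89 in the control and it rose by 1.08 in the knockout, with 0.90 after upper-quartile scaling. Dnajb5 was at 3.14, 6.55, 2.79 and 6.90 FPKM and rose by 1.06 in the knockout, while its control value was 0.87. With 0.1 FPKM in place of 1 added, the control value of Dnajb5 was 1.04, and with 5 FPKM added its knockout value was 0.61, so its count depends on that choice. Dnajb1, the classical heat-inducible HSP40, was at 19.4, 34.4, 20.3 and 36.2 FPKM, with log2 ratios of 0.80 in both genotypes. Dnajb4 had -0.44 and -0.31, and Dnajb9, a regulator of the unfolded protein response in the endoplasmic reticulum, had -0.36 and -0.21.

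The DNAJC genes, a mixed family of J-domain proteins with specialised sites, held both the lowest ratio and several of the highest. Dnajc21, a factor for ribosome assembly (chromosome 15, 10446756 to 10470516, minus strand, GRCm38), was at 10.6, 23.5, 11.6 and 24.9 FPKM and rose by 1.08 and 1.03. With 5 FPKM added these values were 0.87 and 0.84, and after upper-quartile scaling they were 0.92 and 0.86, under the 2-fold mark. Dnajc13, an endosomal J-domain protein, was at 16.3, 30.9, 16.1 and 37.0 FPKM, with 0.88 in the control and a rise by 1.15 in the knockout (0.99 with 5 FPKM added and 0.97 after upper-quartile scaling). Dnajc9 is a histone chaperone of dividing cells (chromosome 14, 20384638 to 20388910, minus strand, GRCm38), and it was at 8.41 FPKM in the control without LPS, 3.31 with LPS, 9.94 in the knockout without LPS and 3.14 with LPS. Dnajc9 fell by 1.12 in the control and by 1.40 in the knockout, or to 0.394 times (0.284 to 0.544) and 0.316 times (0.216 to 0.456) its FPKM without LPS. With 5 FPKM added its values were -0.69 and -0.88.

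Dnajc3, an inhibitor of the stress kinase PERK whose promoter is printed above, was at 17.2, 12.6, 17.5 and 13.03 FPKM. Dnajc8, a splicing-associated member, was at 65.4, 72.8, 69.4 and 80.0 FPKM. The median log2 LPS ratio of the 21 counted DNAJC genes was 0.02 in the control and -0.07 in the knockout, beside 0.87 and 0.99 for the 3 counted DNAJA genes and 0.09 and 0.17 for the 9 counted DNAJB genes.

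Among the BAG genes, Bag1 was the most abundant, at 79.7, 84.0, 90.6 and 88.4 FPKM. Bag3, the stress-inducible member that works with the small heat shock proteins in selective autophagy, was at 27.1, 32.4, 24.4 and 26.8 FPKM. Bag6, which guards membrane proteins before insertion, had the highest LPS ratios of the family, 0.23 and 0.36. Bag2, an inhibitor of the ubiquitin ligase CHIP, was at 8.52 FPKM in the control without LPS, 4.58 with LPS, 6.35 in the knockout without LPS and 2.24 with LPS. Bag2 fell by 1.18 in the knockout, an FPKM ratio of 0.352 (0.189 to 0.601), while its log2 ratio in the control was -0.77, an FPKM ratio of 0.537 (0.371 to 0.763). These intervals overlap, and with 5 FPKM added the knockout value was -0.65. An unnamed gene model, Gm37905, overlaps Bag2 on the other strand, and the sources used here do not say whether fragments were counted by strand.

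The subunits of the cytosolic CCT ring lay close together and above 0 with LPS in both genotypes. With Tcp1, the remaining subunit of the ring, which the symbol rule does not take, 8 genes were compared. Their median level was 99.8 FPKM in the control without LPS, 144 with LPS, 95.0 in the knockout without LPS and 157 with LPS. In each library the highest subunit gene was at 1.82 to 1.98 times the lowest, and Cct3 was the highest in all 4. The log2 LPS ratios ran from 0.38 (Cct5) to 0.86 (Tcp1) in the control and from 0.50 (Cct5) to 0.93 (Tcp1) in the knockout, so none of the 8 reached 2-fold. Between genotypes they lay within -0.12 and 0.15 without LPS and within -0.04 and 0.20 with LPS. The median log2 LPS ratio of all genes with a minimum of 20 FPKM was 0.27 in the control and 0.29 in the knockout. The Cct members by symbol held 0.145% of the summed FPKM in the control without LPS and 0.148% with LPS. In the knockout their share was 0.140% both without and with LPS. Cct6b, a testis form, was under 1 FPKM.

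**Figure D3:**
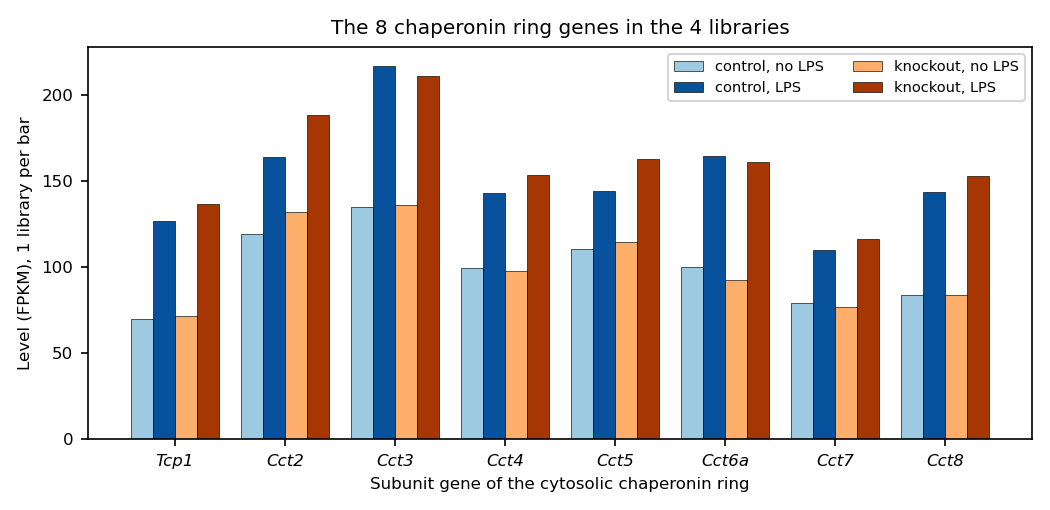
FPKM of the 8 subunit genes of the cytosolic CCT ring, 4 bars per gene for the 4 libraries, 1 library per bar and an axis that starts at 0. For every subunit both LPS bars (dark) are taller than both bars without LPS (pale), and Cct3 is the tallest in each library.

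Small heat shock proteins hold unfolding proteins without using ATP. Of the 8 genes in the files only Hspb1, Hspb6 and Hspb11 reached 5 FPKM. Hspb1 (HSP27) was at 6.995 FPKM in the control without LPS, 7.73 with LPS, 3.56 in the knockout without LPS and 4.82 with LPS, so that both knockout libraries were below both controls. Its log2 LPS ratios were 0.13, or -0.02 after upper-quartile scaling, in the control and 0.35 in the knockout. Hspb6 was at 6.01, 3.04, 5.46 and 4.11 FPKM, with log2 LPS ratios of -0.80 and -0.34. Hspb11, an intraflagellar transport protein by function, was at 13.7, 13.7, 15.6 and 12.01 FPKM. Hspb8, the partner of Bag3, was at 3.07, 3.88, 1.20 and 1.08 FPKM, under the minimum in every library.

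Grouped by regulation and place rather than by family, the heat-inducible targets of heat shock factor 1 lay above 0 with LPS for 14 of 16 counted members in the control (median 0.44) and 13 of 15 in the knockout (median 0.51), where 57.1% and 57.2% of all genes did. Hsph1 and Dnajb4 were the exceptions in both. Of the 19 genes listed, Hspa1a, Hspa1b and Hspb8 were under 5 FPKM and not counted, nor was Hspb1 in the knockout. Over all genes the medians were 0.11 and 0.12, and with a minimum of 20 FPKM they were 0.27 and 0.29. Whether heat shock factor 1 had a part in these ratios was not tested. After upper-quartile scaling 12 of 16 and 11 of 15 counted members of the list were above 0, with medians of 0.27 and 0.33. Only Hsp90aa1 in this list rose past 2-fold, where 12.3% of all genes did in the control and 13.7% in the knockout. The members of the endoplasmic reticulum had medians of 0.05 and -0.05 over 12 genes, with Hspa5 the only one past 2-fold. Those of the mitochondrion had medians of 0.01 and -0.01 over 8 genes, with none past 2-fold. The same backgrounds stand beside these counts, with 6.50% of all genes lower in the control and 7.74% in the knockout.

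Genes outside the families that work with them were read in the same way. Of the heat shock factors, Hsf1 was at 13.1, 17.7, 15.2 and 20.5 FPKM and Hsf2 at 12.6, 18.7, 10.7 and 17.3 FPKM, neither past 2-fold. The background over all genes was 12.3% higher and 6.50% lower in the control, and 13.7% higher and 7.74% lower in the knockout. In lists as small as those that follow, counts beside it are a description only. Of 17 counted co-chaperones of HSP90 and HSP70, 1 was higher and 0 were lower in each genotype. That gene was Stip1, the adaptor that passes clients from HSP70 to HSP90, at 48.0, 139.5, 55.1 and 168 FPKM, which rose by 1.52 in the control and 1.59 in the knockout, above every member in both genotypes. None of 13 counted folding genes of the endoplasmic reticulum was past 2-fold in either direction. In this list Hyou1, a nucleotide exchange factor for Hspa5, had -0.27 and -0.15, and the disulphide isomerase Pdia4 had -0.74 and -0.74. The lectin chaperone Canx had 0.55 and 0.64 and Manf had 0.44 and 0.43. Of the 13, 7 lay above 0 in each genotype as deposited, and 4 in the control and 3 in the knockout after upper-quartile scaling. None of the 8 partners of the chaperonin was past 2-fold. Among the other chaperones and proteases Hscb, a mitochondrial J-domain protein for iron-sulphur cluster assembly, was at 16.1, 7.12, 14.6 and 4.99 FPKM and fell by 1.07 and 1.39. In the same list Trap1 had log2 LPS ratios of -0.13 in the control and 0.10 in the knockout.

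The responses of both genotypes were close. Of the 61 members counted in both, 54 (88.5%) had ratios of the same sign, beside 92.4% of 7876 genes. Past 2-fold in both were 4 higher members, against 11.5% of those genes, and 1 lower, against 5.45%. Past 1.5-fold in both were 14 higher, against 21.8%, and 3 lower, against 13.0%. The log2 ratios were within 0.2 of each other for 51 of the 61 members and for 72.2% of all genes. Signs were opposite for Bag1, Dnajc10, Dnajc24, Dnajc25, Dnajc7, Hspa14 and Hspb11, and except for Dnajc24 at least 1 of each pair of values was within 0.1 of 0.

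The LPS ratio in the knockout minus that in the control ran from -0.66 for Dnajc24 to 0.46 for Hspb6, and 0 of 62 members reached a difference of 1 in size, where the background was 0.822%. At 1.5-fold 1 member, Dnajc24, was counted, against 2.97%. Dnajc24, which serves diphthamide synthesis, was at 6.60 FPKM in the control without LPS, 8.33 with LPS, 10.4 in the knockout without LPS and 7.89 with LPS. The knockout without LPS stood above the other libraries, at 1.58 times (1.21 to 2.06) the control in FPKM. Overlapping gene models, Dcdc5 among them, lie on the other strand at this locus.

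Between knockout and control, without LPS or with it, no counted member was past 2-fold. Without LPS 0 of 61 members were higher, where the background was 0.490%, and 0 were lower, where it was 0.412%. With LPS 0 of 58 were higher against a background of 0.493%, and 0 were lower against 0.400%. At 1.5-fold without LPS 1 member was higher (Dnajc24, against 1.75%) and 1 lower (Hspb1, against 1.37%), and with LPS 0 were higher (against 2.86%) and 1 lower (Hspb1, against 1.69%). At backgrounds this low, a count of 0 among about 60 genes is near what all genes show. Within 1.2-fold of each other were 56 of 61 members without LPS and 54 of 58 with LPS, beside 6517 of 7762 and 5721 of 7509 genes. The median log2 ratios were 0.04 and 0.07, beside 0.07 and 0.09 over all genes, and upper-quartile scaling turned the members' medians to -0.04 and -0.01.

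**Figure D4:**
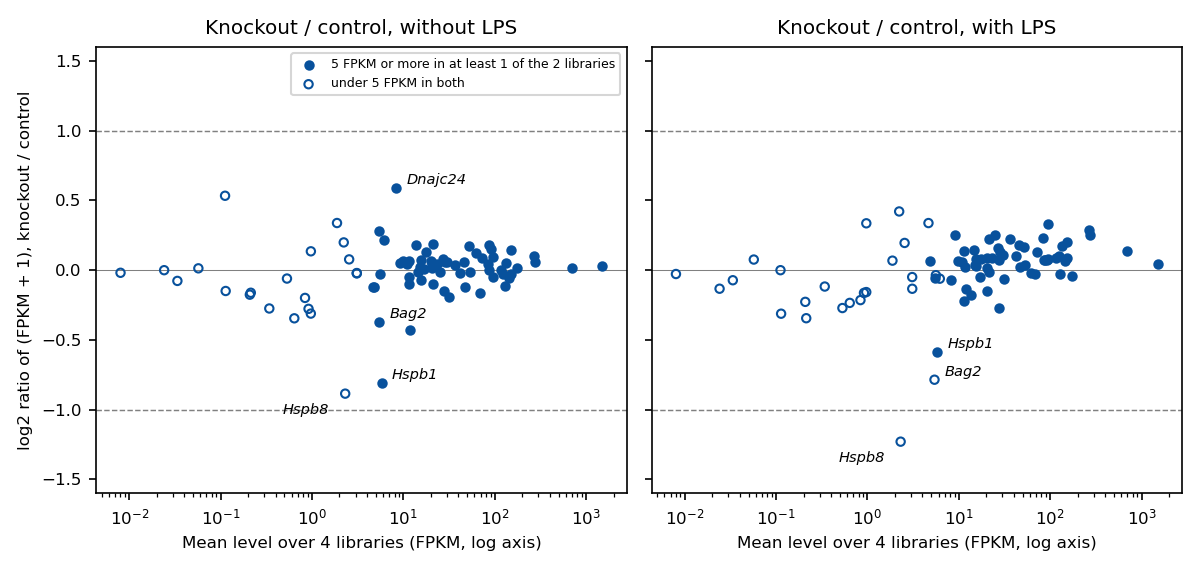
Log2 ratio of (FPKM + 1), knockout over control, against the mean FPKM of the 4 libraries on a log axis, for members above 0 in at least 1 library, without LPS (left) and with LPS (right), 1 library per group; filled points reached 5 FPKM in at least 1 of both libraries and dashed lines mark 2-fold. Most filled points lie near 0, Hspb1 is the lowest filled point in both panels (-0.81 and -0.59), and the open point of Hspb8 is at -0.88 and -1.23.

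Among the members with the lowest genotype ratios were small heat shock genes. Hspb1 had an FPKM ratio, knockout to control, of 0.509 (0.322 to 0.767) without LPS and 0.623 (0.372 to 0.982) with LPS. Hspb8 had 0.392 (0.239 to 0.623) and 0.279 (0.145 to 0.501), from 77 and 25 fragments without LPS and 66 and 14 with LPS. The log2 (FPKM + 1) ratio of Hspb8 with LPS was -1.23, past 2-fold, but the gene stayed under 5 FPKM and entered the count only with a minimum of 1 FPKM or none. Bag2 with LPS, likewise under the minimum, had an FPKM ratio of 0.489 (0.252 to 0.864) and a log2 ratio of -0.78, between those of Hspb8 and Hspb1.

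Most stromal and smooth muscle markers at 5 FPKM or more were lower in the knockout libraries too, Dcn excepted. The 12 marker genes, endothelial ones included, summed to 673 FPKM in the control without LPS, 713 with LPS, 356 in the knockout without LPS and 402 with LPS, with Lum and the endothelial markers Pecam1, Cdh5 and Vwf under 1 FPKM throughout. Acta2, the smooth muscle actin, was at 237, 243, 109 and 118 FPKM, and Col1a1 at 84.0, 92.6, 47.3 and 56.2 FPKM. The median log2 ratio, knockout to control, was -0.79 over the 7 markers counted without LPS and -0.66 over the 8 counted with LPS. The 9 markers of macrophages lay on the other side of 0: 7 of 9 were above 0 without LPS (median log2 ratio 0.31) and 8 of 9 with LPS (median 0.23). Their sum was 10102, 12483, 8681 and 11474 FPKM, and its lower value in the knockout came with Lyz2, the most abundant of them, at 6340.4, 5620.4, 4014 and 3419 FPKM.

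Serpinh1 (HSP47), the collagen-specific chaperone of the endoplasmic reticulum and not a member by symbol, was at 46.3, 53.3, 28.3 and 30.9 FPKM, with log2 genotype ratios of -0.69 and -0.77. The related small heat shock gene Cryab was at 2.95, 2.03, 1.34 and 1.14 FPKM. Hspb1, Hspb8, Cryab and Serpinh1 thus had genotype ratios of the same sign as most of the stromal markers, while Hspb6 and Hspb11 did not in every comparison. Hspb8 and Cryab were under 5 FPKM in every library. Above 0 were 39 of 61 counted members without LPS and 43 of 58 with LPS, so a ratio below 0 was not particular to these genes. The part of stromal cells in the ratios of Hspb1, Hspb8, Cryab and Serpinh1 was not tested. In bulk RNA fewer cells of a type and less RNA per cell cannot be told apart.

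**Figure D5:**
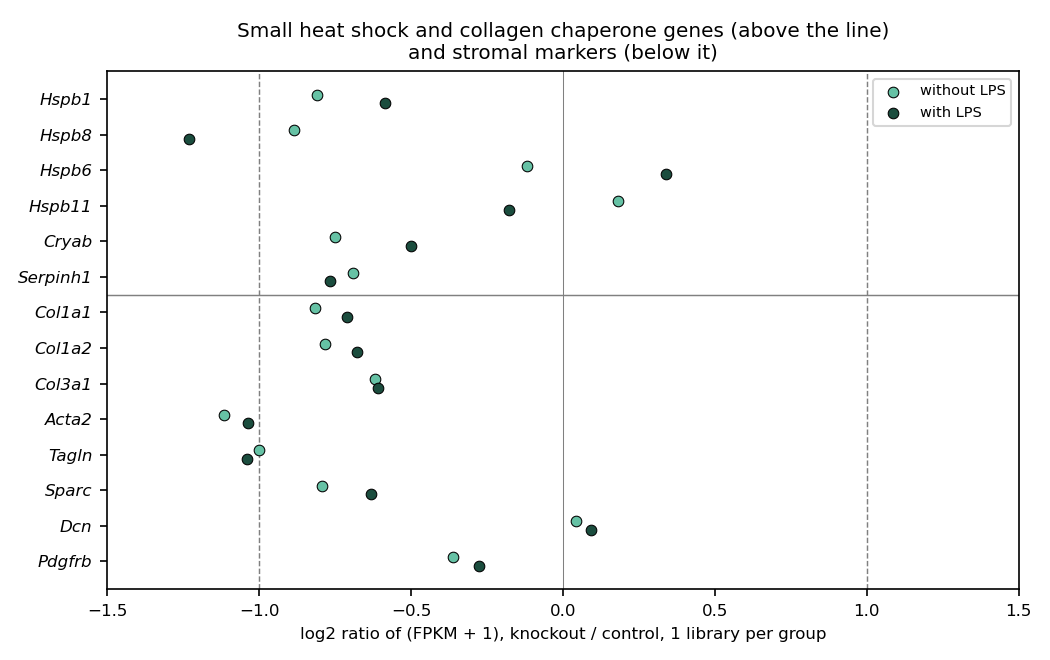
Log2 ratio of (FPKM + 1), knockout over control, without LPS (pale) and with LPS (dark), for small heat shock genes, Cryab and Serpinh1 (above the line) and for the 8 stromal markers that reached 5 FPKM in at least 1 library (below it), 1 library per group; dashed lines mark 2-fold. Hspb1, Hspb8, Cryab and Serpinh1 lie between -0.50 and -1.23, as most stromal markers lie left of 0, while Dcn lies at 0.04 and 0.09.

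Below 5 FPKM in all 4 libraries were 27 members, read here without ratios other than those above. Bag4 was at 3.81, 2.47, 3.74 and 2.35 FPKM, Dnajc18 at 3.69, 2.70, 3.61 and 2.37 FPKM, and Dnajc28 at 1.36, 0.269, 0.857 and 0.0790 FPKM. For these genes both LPS libraries were below both others. Not every low member went this way: for Hspa1b, whose split from Hspa1a is uncertain, both LPS libraries were above both others. The directions of the 27 were not counted. In a transcript of 2 kb, a count of 0 fragments would allow up to 0.108 FPKM in the control without LPS and 0.208 FPKM in the knockout with LPS. Low members such as Hspa12b and Dnajc6 were thus near the limit of detection.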

How the data were processed

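RNA was measured in 4 libraries, 1 per combination of genotype and LPS, made with a stranded mRNA kit per the labels' protocols. The authors deposited FPKM for 23284 genes in each. The submitters' processing notes name the mm10 build, Cuffnorm 2.2.1, SAMtools 0.1.19, Bowtie2 2.2.3 and TopHat2 2.0.13 without a role or order, and do not name the annotation. Samples were grouped by the labels.

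From these, log2 ratios of (FPKM + 1) were taken between libraries with no further scaling (Python 3.11.15, pandas 2.3.3, scipy 1.17.1). A gene was counted at 2-fold or more where the higher library of those compared reached 5 FPKM. The relative number of fragments behind 1 FPKM came from the spacing of low values. Of 3175 low genes, 2641 (83.2%) fell on whole steps within a tolerance of 0.02. Fragment numbers then followed from GENCODE transcript lengths less an offset of 210 bases, so intervals (Clopper-Pearson, 95%) are approximate. The recovery of relative fragments per FPKM and the calling of changes simulated well past 2-fold were tested on simulated data. The absolute fragment numbers behind the intervals and changes near 2-fold were not. Gene positions are from GENCODE on GRCm38 and promoters from RefSeq.

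Members named by rule were those past 2-fold, the highest, lowest and most abundant of each role, and textbook chaperones. Dnajc24, Hspb8 and the low members of the last paragraph were added after their values were seen. Other genes were also named outside the rule with their values known, among them Hspa13, Hspbp1, Pdia4, Canx and Manf. Members and lists were chosen with earlier results of these data known. Pseudocount, minimum, scaling and fold threshold were varied. Markers of erythroid cells (all under 1 FPKM), B cells (summing to at most 0.245 FPKM), T and NK cells (at most 1.76 FPKM) and neutrophils (41.6, 242, 31.5 and 131 FPKM) were also read. Of the neutrophil sums, S100a8 alone gave 20.2, 214, 18.5 and 114 FPKM. Mpo was at 0 and Elane, Prtn3 and Ltf were under 1 FPKM in every library, so the sums do not measure neutrophils.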

Additional observations from a re-analysis of the deposited data

How the results depend on the processing

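No paired analysis was possible because each group had 1 library and no result came from a test. For the same reason no library could be left out. With 5 FPKM added in place of 1, members higher with LPS numbered 2 in the control and 4 in the knockout, and members lower 0 and 0. The share of all genes was not counted with another pseudocount, another minimum, another scaling or a 3-fold threshold. Changes of count under those settings thus have no background and cannot be read as particular to the members. With a minimum of 20 FPKM members lower were 0 and 0, and the medians with LPS were 0.38 and 0.47, beside 0.27 and 0.29 over all genes. With no minimum the medians were 0.079 and 0, beside 0 and 0 over all genes. Upper-quartile scaling gave 2 higher in the control and 3 in the knockout and medians with LPS of 0.0096 and 0.0187, and it reversed the genotype medians to -0.0357 without LPS and -0.0125 with LPS. That scaling moved the median of all genes by a similar amount. A 1.5-fold threshold, at which 23.1% of all genes were higher and 15.1% lower in the control and 25.4% higher in the knockout, gave 14 higher and 5 lower in the control, 19 higher in the knockout, 1 higher (Dnajc24) and 1 lower (Hspb1) between genotypes without LPS (1.75% and 1.37% of all genes), 1 lower (Hspb1) with LPS (1.69%), and 1 member (Dnajc24) with responses apart (2.97%). A 3-fold threshold left 0 higher and 0 lower members with LPS in both genotypes. Between genotypes with LPS, 1 member was lower (Hspb8) with a minimum of 1 FPKM and with none. Hspa5 and Dnaja2 stayed past 2-fold in both genotypes with 5 FPKM added and after upper-quartile scaling. Median-ratio scaling changed no count of members. Genes near 5 FPKM rest on few fragments, such as 36 for Dnajc9 in the knockout with LPS.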
